A study of Mus musculus with 12 samples.

Results

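The wild-type state of bone marrow LSK cells was described from the 4 libraries of genotype Yy1+/+, which are 4 of the 12 libraries of the series. These 4 were taken by their genotype label alone, and no measured value entered the choice. LSK cells are marrow cells sorted as negative for lineage markers and positive for Sca1 and c-Kit, and in all 12 libraries RNA of such mouse cells was read after full-length cDNA amplification. The Yy1+/+ libraries are the control of 2 further groups of 4 libraries each, Yy1-/- and Yy1-/- Smc3+/-, which are used here only to show where the wild-type profile differs. The product of Yy1 is a DNA-binding zinc finger factor that activates some genes and represses others, and that of Smc3 forms part of cohesin, the ring that encircles DNA. The labels give no strain, age, sex, batch, deletion driver or treatment for any group.

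The LSK gate holds the haematopoietic stem cells, most of which are out of the cell cycle, together with the multipotent progenitors that descend from them and divide more often. Stem cells are kept by transcription factors such as Hlf, Mecom, Gata2, Meis1 and Tcf15 and by signals through the receptors Kit and Tek. Their descendants gain Flt3 and Cd48 and begin to transcribe genes of the myeloid, lymphoid, megakaryocytic or erythroid lineages at low levels before they commit to any of them.

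Levels are given as TPM, the share of all transcripts that belongs to a gene on a scale common to all libraries and corrected for gene length, so that genes can be compared within a library. Yy1 (ENSMUSG00000021264.12, chr12:108792973-108820148 on the plus strand of mm10) stood at 8.24, 8.14, 8.80 and 8.32 TPM in Yy1+/+ replicates 1 to 4. In Yy1-/- it stood at 0.07, 0.20, 0.96 and 2.65 TPM and in Yy1-/- Smc3+/- at 0.16, 0.18, 0.87 and 0.20 TPM. All Yy1+/+ libraries therefore lay above all others, and edgeR's quasi-likelihood test with Benjamini-Hochberg adjustment called Yy1 lower in Yy1-/- (log2 fold change -2.95 ± 0.90, SE, adjusted p = 0.0262) and in Yy1-/- Smc3+/- (-4.37 ± 0.96, adjusted p = 0.00629). The Yy1-/- call rested on single libraries, since its adjusted p was 0.0556 without Yy1-/- replicate 2 and 0.0551 without Yy1-/- replicate 3. Smc3 had 51.0, 40.7, 71.3 and 54.5 TPM in Yy1+/+, and 66.5 to 98.9 TPM in the libraries labelled Yy1-/- Smc3+/-, so its level was not lower under the heterozygous label. Both genes of the sorted surface proteins were abundant in Yy1+/+: Ly6a, which encodes Sca1, had 520, 377, 427 and 604 TPM, and Kit, the stem cell factor receptor, had 234, 99.1, 302 and 252 TPM. Replicate 2 was lowest for both.

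The summed expected counts of the 4 Yy1+/+ libraries ran from 42071439 to 69086104, with replicate 2 the deepest, against 38671354 to 51587192 in the other 8. A gene at 1 to 2 TPM held a median of 82.5 counts per library, although PCR copies without molecular identifiers are not independent molecules. Short genes can hold few counts at higher TPM. Mir142hg, of 269 bases, had 14, 14, 0 and 9 counts at a mean of 11.7 TPM. The Yy1+/+ libraries differed among themselves in 2 ways that touch several results below. Replicates 1 and 4 carried transcripts of the Y-linked gene Eif2s3y (40.6 and 30.6 TPM), and replicates 2 and 3 had 0, while Xist stood at 3.07, 4.21, 9.65 and 2.53 TPM. Replicate 2 was low for long genes: over the 2005 genes of at least 4000 bases, the median deviation from the gene's mean on the log2 scale was 0.09, -0.55, 0.38 and 0.07 in replicates 1 to 4, and over the 1336 genes under 1000 bases it was 0.01, -0.04, -0.07 and 0.11. Replicate 2 was the lowest library for 58.6% of the 10160 genes with a mean of at least 5 TPM, and replicate 3 the highest for 39.9%. The part of length in the differences between libraries was not tested for single genes, and values are therefore given for each library.

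Of 12 genes for antigens that lineage depletion commonly targets, 7 lay under a mean of 1 TPM in Yy1+/+. Cd3e of the T cell receptor complex had 0.19, 0.29, 0 and 0 TPM and Ly6g of neutrophils 1.61, 0.15, 0 and 0.21. Ptprc, which encodes the pan-leukocyte phosphatase CD45, led the panel with 72.4, 48.4, 81.5 and 74.6 TPM, followed by the myeloid integrin Itgam with 19.6, 9.06, 12.1 and 12.6. Markers of other marrow cells were low but not all absent. Of 16 stromal genes, 4 reached a mean of 1 TPM, the summed level of the list was 16 to 40 TPM, and Bglap, Pdgfra, Lum and Adipoq were at 0 in all 4. Of 12 endothelial genes, the highest were Esam, Tie1 and Pecam1, which LSK cells also transcribe, while Cdh5, which defines endothelium, stayed at or under 0.05 TPM. The neutrophil, eosinophil, mast and basophil lists and the immunoglobulin genes were higher and differed between the libraries, and they are described with the variable genes.

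In the Yy1+/+ libraries 11959 of 55487 listed genes reached 1 TPM in every library, 10781 of them protein coding, and 32824 genes had 0 in all 4. Means of at least 100 TPM were found for 1979 genes and of at least 1000 TPM for 123. The 30 most abundant genes together held 13.9% of all TPM. They fall into a few classes: translation (among others Rpl13, Rpl32, Rps18, Rps14, Rpl36, Rps27, Rps19 and the elongation factor Eef1a1), iron storage and redox balance (Ftl1, Fth1, Gpx1), the ubiquitin and folding genes Ubb, Hspa8 and Ppia, the antigen presentation genes B2m, H2-K1 and H2-D1, the mitochondrially encoded ATP synthase subunits mt-Atp6 and mt-Atp8, and the immunoglobulin genes Igkc, Iglv1, Iglc1 and Igha. Mpo, the myeloperoxidase of neutrophil precursors, stood at 3321, 3950, 1432 and 1646 TPM, and Stmn1, a tubulin-binding protein, at 2116, 3288, 3017 and 3079. H2-K1 and H2-D1, the histone Hist1h2ap (mean 5682 ± 1230.3 TPM, SD, n = 4) and Gm28437, a copy of mitochondrial sequence on chromosome 1, have near-identical relatives, so the division of their reads is uncertain.

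**Figure D1:**
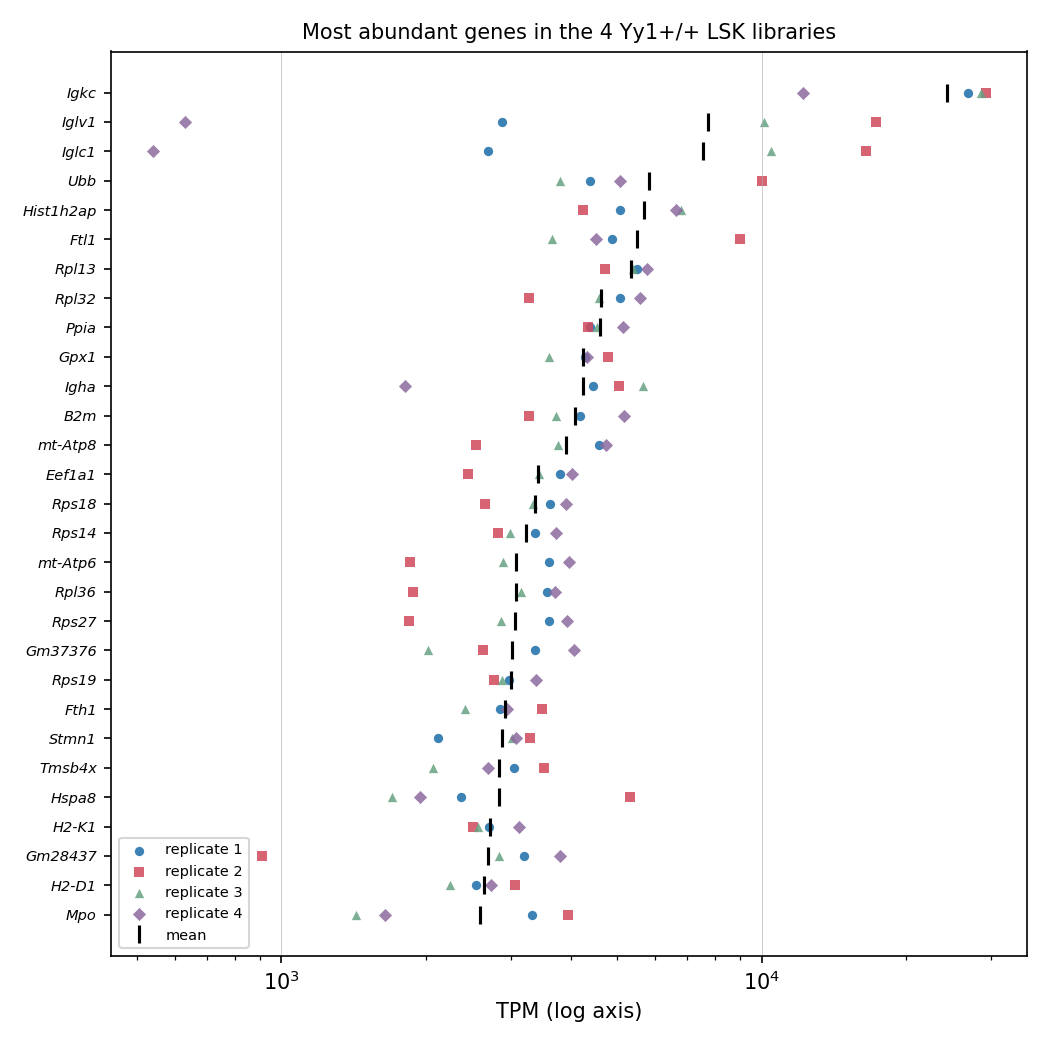
TPM on a log axis for named genes among the 30 with the highest mean over the 4 Yy1+/+ libraries. Coloured markers are the 4 libraries and the line is their mean. Ribosomal protein genes lie in narrow groups, with replicate 2 often lowest, whereas Iglv1 spans 629 to 17314 TPM.

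Igkc, the constant region of the kappa light chain (ENSMUSG00000076609.2, chr6:70726435-70726966), was the most abundant of all genes, with 26946, 29322, 28641 and 12214 TPM. Ftl1, the ferritin light chain, had 4875, 9003, 3656 and 4517 TPM, and Gpx1, a glutathione peroxidase, had 4296, 4778, 3600 and 4331. Ribosomal protein genes were the largest class: 79 of 82 had a mean of at least 5 TPM, the median of the 82 was 1026 TPM, and they made up 10.5% of all TPM. Their summed level was 113090, 79719, 104791 and 122175 TPM, and replicate 2 was the lowest library for 76 of the 79.

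The 100 most abundant genes of each library held 26.4% ± 1.74 (SD, n = 4) of its TPM in Yy1+/+, against 29.4% ± 1.97 in Yy1-/- and 29.5% ± 2.75 in Yy1-/- Smc3+/-. These differences did not pass an exact two-sided permutation test of 4 against 4 libraries (p = 0.0571 and 0.143, Benjamini-Hochberg adjusted over 4 such tests 0.114 and 0.143), whose smallest possible p is 0.0286. A Yy1+/+ library held 13188 ± 273 genes at 1 TPM or more, against 12591 ± 393 for Yy1-/- and 12799 ± 248 for Yy1-/- Smc3+/- (exact permutation p = 0.0571 and 0.0857, adjusted 0.114 for both).

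Transcription factors of stem cells were a well transcribed group in Yy1+/+: 40 of 43 listed factors had a mean of at least 1 TPM, and their median was 27.8 TPM. Lmo2, a bridging protein of the GATA and TAL1 complex, was the most abundant, with 921, 815, 859 and 1110 TPM. Its partner Ldb1 had 132, 136, 146 and 138 TPM, and Tal1 itself, the DNA-binding member, had 9.53, 7.02, 11.5 and 11.5. Partners of 1 complex thus stood at very different levels, and Lmo2 and Ldb1 were steadier across the libraries than Tal1.

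Gata2, a zinc finger factor needed for stem cell survival, stood at 128, 146, 161 and 146 TPM. Hhex, a homeobox factor of stem cells and lymphoid progenitors, was the steadiest of the list, with 196, 198, 210 and 200 TPM and an SD of 0.04 on the log2(TPM + 1) scale, the scale of every SD of log values below. Meis1, a cofactor of HOX proteins, had 116, 90.8, 136 and 130 TPM. Gata2 and Meis1 had an SD of 0.13 and 0.26, and the median over all genes at 5 TPM or more was 0.24.

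Hlf and Mecom, which mark the most immature cells of the gate, were less abundant. Hlf, a bZIP factor, had 62.3, 24.2, 64.9 and 60.3 TPM, with replicate 2 far below the other 3. Mecom, a zinc finger factor, had 39.6, 26.4, 58.5 and 43.2 TPM, again lowest in replicate 2 and highest in replicate 3. Tcf15, a basic helix-loop-helix factor, went the other way, with 25.0, 36.6, 23.7 and 26.1 TPM. Prdm16 stayed near a mean of 5.09 TPM and Runx1, required for blood formation, near 27.9. The 3 listed factors with an SD of at least 1, Nr4a1, Egr1 and Nr4a2, are also immediate early genes and are described with those.

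**Figure D2:**
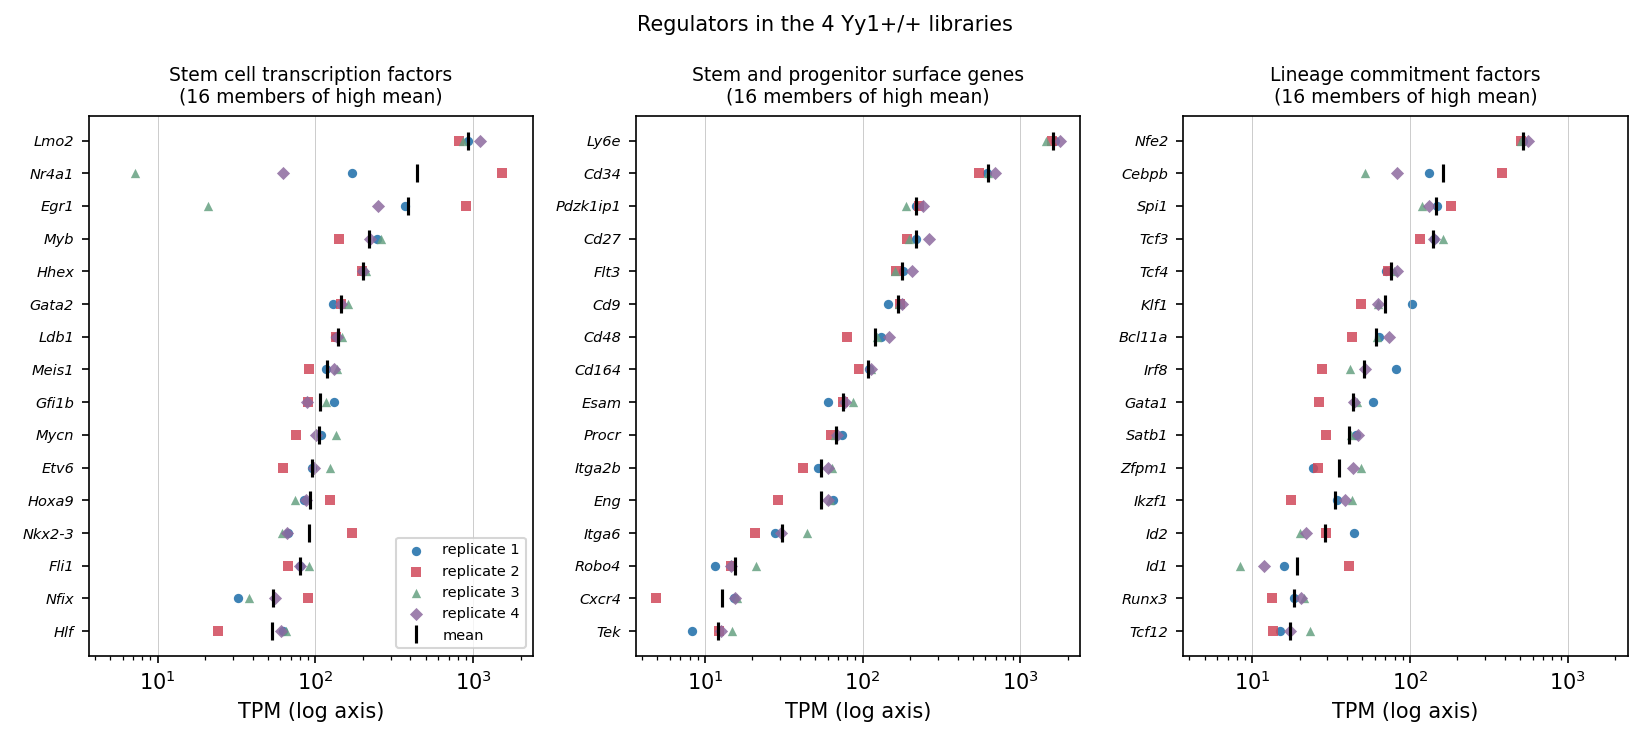
TPM on a log axis for 16 members of high mean from each of the lists of stem cell transcription factors, surface genes and lineage factors. Markers are the 4 Yy1+/+ libraries and the line is their mean. Lmo2, Hhex and Nfe2 form narrow groups, Nr4a1 and Egr1 spread widely, and Hlf of replicate 2 (24.2 TPM) lies apart from the other 3 libraries.

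Among 28 surface genes of stem and progenitor cells, 25 reached a mean of 1 TPM in Yy1+/+ and 21 reached 5 TPM, and none of the 21 had an SD of 1 or more. Ly6e, a relative of Ly6a, was highest at 1656, 1574, 1459 and 1781 TPM. Cd34, a sialomucin of progenitors, had 613, 550, 624 and 690 TPM. Genes of stem cells proper were lower: Procr, the protein C receptor, had 73.5, 63.0, 67.1 and 69.1 TPM, Tek, the angiopoietin receptor, 8.30, 12.3, 14.8 and 12.7, and Slamf1, which encodes CD150, 8.60, 12.1, 12.6 and 10.3. Genes of multipotent progenitors were higher, with Flt3 at 181, 163, 161 and 207 TPM and Cd48 at 131, 79.4, 124 and 146. In bulk libraries such as these, a smaller share of cells that transcribe a gene and less RNA per cell cannot be told apart. None of these orders was tested, and TPM does not count cells.

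Of 36 cytokine receptor genes, 33 had a mean of at least 1 TPM. Il2rg, the common gamma chain, was among the most abundant, with 194, 302, 218 and 219 TPM, beside Kit. Il2rg was highest in replicate 2, where Kit was lowest. Csf3r, the receptor of granulocyte colony-stimulating factor, stood at 77.1, 76.1, 71.4 and 84.8 TPM, Csf2ra at 48.1, 38.3, 26.9 and 36.0, and Epor, the erythropoietin receptor, at 33.4, 17.2, 23.7 and 24.2. Il7r, which marks common lymphoid progenitors outside the gate, had 1.00, 0.37, 0.93 and 0.82 TPM.

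Lineage factors were present for several lineages at once. Nfe2, a bZIP factor of platelets and red cells, had 524, 505, 506 and 559 TPM and an SD of 0.07. Spi1, which encodes the myeloid and lymphoid factor PU.1, had 148, 182.3, 120 and 131 TPM. Gata1, the erythroid and megakaryocytic GATA factor, had 58.5, 26.6, 46.3 and 44.0 TPM, below Gata2 in every library, and Klf1, its erythroid partner, 103, 49.0, 62.9 and 62.4. Cebpa, needed for granulocyte commitment, was low at 7.0, 2.91, 5.45 and 6.25 TPM. B cell commitment factors were close to 0, with Pax5 at 0.02, 0, 0 and 0 TPM and Ebf1 at 0.07, 0.04, 0.20 and 0.24. Of the genes of lymphoid priming, Dntt, the terminal transferase, had 189, 102, 141 and 176 TPM. Effector genes of red cells were led by Car2, a carbonic anhydrase also found in early progenitors (1485, 1378, 1199 and 1413 TPM), and those of platelets included Pf4, platelet factor 4 (98.7, 65.3, 55.7 and 110 TPM).

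Hox genes, whose paralogues set position in the embryo and self-renewal in blood, were restricted to a few members. Of 34 listed, 24 lay under a mean of 1 TPM. Hoxa9 was highest with 85.2, 124, 74.5 and 87.5 TPM, followed by Hoxa7 with 44.7, 43.6, 36.8 and 43.6 and Hoxa10 with 21.3, 26.9, 27.4 and 28.3. In the B cluster Hoxb2 had 11.5, 12.0, 15.4 and 10.1 TPM, Hoxb5, used as a stem cell reporter, 4.39, 6.12, 4.96 and 4.56, and Hoxb4 only 0.81, 0.56, 0.36 and 1.00.

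Regulators of chromatin that bear on the other genotypes were all transcribed, with 31 of 31 listed polycomb, Yy1 partner and cohesin genes at a mean of at least 1 TPM. Smc1a, the partner of Smc3 in the cohesin ring, had 90.5, 75.2, 130 and 101 TPM, Ctcf, which positions cohesin, 55.3, 46.5, 78.0 and 63.8, and Ezh2, the polycomb methyltransferase, 56.1, 43.5, 84.1 and 73.5. Replicate 3 was highest and replicate 2 lowest for these genes, as for the median gene of at least 4000 bases. Of the genes named, however, only Smc1a, with 4691 bases in replicate 1, lay in that class. Ctcf had 3782 bases and Ezh2 2609, and the part of length was not tested. Among genes of DNA methylation, Dnmt1, the maintenance enzyme, had 83.8, 58.6, 173 and 113 TPM, Dnmt3a 25.7, 19.4, 27.5 and 25.6, and Tet2 2.74, 1.62, 3.15 and 2.99.

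The metabolic profile of the Yy1+/+ libraries was one of the steadiest features. All 26 listed genes of glycolysis had a mean of at least 5 TPM and none had an SD of 1 or more. Their summed level was 8451, 8804, 8914 and 8901 TPM, a mean of 8768 ± 217 (SD, n = 4). Gapdh led with 2266, 1983, 2439 and 2464 TPM, and Ldha, the lactate dehydrogenase subunit, had 1078, 1134, 1252 and 1182. Pkm, pyruvate kinase, had 836, 1055, 917 and 911 TPM, and among the hexokinases Hk1 had 151, 136, 215 and 164. The 22 genes of the citrate cycle summed to 4087 ± 127 TPM, led by Mdh2 with a mean of 582 ± 63.4, and the pentose phosphate genes were led by Taldo1 with 647 ± 37.2.

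All 74 nuclear genes of the respiratory chain and ATP synthase had a mean of at least 5 TPM, with a median of 368 TPM. Their summed level was 30943, 30539, 30888 and 34455 TPM, so that 3 libraries lay close together and replicate 4 lay above them. Atp5b, the catalytic beta subunit of ATP synthase, had 1496, 1331, 1604 and 1553 TPM, and Cox4i1 of cytochrome oxidase 1099, 1059, 1057 and 1184. The mitochondrially encoded genes did not share this steadiness: they summed to 16645, 7298, 12709 and 17773 TPM, lowest in replicate 2, and the reads they share with nuclear copies of mitochondrial sequence make that sum uncertain. A ratio of summed levels within a library would mix both kinds of spread and is not given.

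Among protein turnover genes, the 31 of the proteasome summed to 9285 ± 614 TPM, with a median SD of 0.10, and Psma7 of the core particle led with 787, 987, 807 and 837 TPM. Interferon-stimulated genes were abundant, with 45 of 45 at a mean of at least 1 TPM and a summed level of 8892 ± 859. Ifitm1, a membrane protein that restricts viral entry, had 1695, 1906, 1688 and 2117 TPM, highest in replicate 4. Cholesterol synthesis genes were lower, with Fdps at 140, 92.2, 103 and 122 TPM.

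Cell cycle genes were transcribed in every Yy1+/+ library and differed between the libraries. A shared highest library was found for the mitosis genes, but not for the replication genes or G1 regulators. All 41 listed genes of mitosis reached a mean of 1 TPM, and the list summed to 2527, 2362, 4089 and 3124 TPM. Replicate 3 was the highest library for 40 of the 40 members at 5 TPM or more. Cdk1, the mitotic kinase, had 158, 149, 227 and 176 TPM, Ccnb1, its cyclin, 84.0, 71.7, 119 and 98.4, and Top2a, the topoisomerase of dividing cells, 58.3, 34.8, 130 and 74.9. Mki67, the proliferation antigen, had 11.9, 8.50, 26.4 and 16.5 TPM. Replicates 1 and 2 were thus low, replicate 4 between and replicate 3 high. Top2a and Mki67 are long transcripts, for which replicate 3 was generally high, and the part of length was not tested. Cks2 and Birc5, both under 1000 bases, were also highest in replicate 3, with 234, 207, 269 and 262 TPM and 182.3, 194, 272 and 230 TPM.

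Replication genes spread less. The 40 genes summed to 4104, 4456, 5658 and 4904 TPM, with Mcm6 of the replicative helicase at 373, 369, 549 and 459 and Pcna, the sliding clamp, at 230, 329, 289 and 295. G1 regulators were led by Myc (609, 389.5, 602 and 529 TPM) and Cdk4 (484, 495, 545 and 538), with Ccnd3 and Ccnd2, the D cyclins of blood, at 219, 201, 233 and 200 and at 184, 149, 171 and 170. Inhibitors of the cycle were uneven in level. Cdkn1c, which encodes p57 and holds stem cells in quiescence, had 21.2, 24.3, 17.7 and 17.9 TPM, Cdkn1b, which encodes p27, 3.13, 1.58, 2.70 and 3.35, and Cdkn2a, the senescence locus, was listed at 0 in all 4. Cdkn1a, which encodes p21, had 24.3, 145, 11.2 and 17.4 TPM, and this high value in replicate 2 went together with the immediate early genes. Without replicate 2 its SD was 0.53 in place of 1.58.

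The promoters of 4 immediate early and heat shock genes, Atf3, Nr4a1, Hspa1a and Fos, are shown. These genes were among the 8 named genes with the largest SD outside the immunoglobulin loci. Egr1, an immediate early gene also among the 8, is not shown. Each sequence is the 250 bases before the RefSeq start of the gene on GRCm38.p6, 5′ to 3′ on the gene's own strand: Atf3 at chr1:191183334-191183583 on the minus strand, Nr4a1 at chr15:101266596-101266845 on the plus strand, Fos at chr12:85473640-85473889 on the plus strand and Hspa1a at chr17:34972157-34972406 on the minus strand. Capitals mark the cAMP response half-element TGACG or its reverse complement CGTCA in Atf3, Nr4a1 and Fos, and the inverted pair of heat shock units GAANNTTC in Hspa1a.
Atf3: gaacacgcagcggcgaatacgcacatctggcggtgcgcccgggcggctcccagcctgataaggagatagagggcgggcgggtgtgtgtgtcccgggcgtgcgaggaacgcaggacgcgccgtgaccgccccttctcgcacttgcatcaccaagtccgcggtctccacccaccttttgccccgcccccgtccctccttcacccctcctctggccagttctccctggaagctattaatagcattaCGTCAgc
Nr4a1: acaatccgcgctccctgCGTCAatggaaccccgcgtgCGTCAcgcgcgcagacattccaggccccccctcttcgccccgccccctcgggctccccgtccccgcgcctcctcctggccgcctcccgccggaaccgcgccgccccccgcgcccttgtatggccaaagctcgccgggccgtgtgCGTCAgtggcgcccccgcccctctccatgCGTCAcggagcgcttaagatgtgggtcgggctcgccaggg
Fos: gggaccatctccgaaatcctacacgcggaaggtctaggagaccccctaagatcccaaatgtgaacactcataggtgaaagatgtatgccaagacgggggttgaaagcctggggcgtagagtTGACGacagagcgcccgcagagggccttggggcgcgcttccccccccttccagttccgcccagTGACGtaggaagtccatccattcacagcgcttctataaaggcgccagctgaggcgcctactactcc
Hspa1a: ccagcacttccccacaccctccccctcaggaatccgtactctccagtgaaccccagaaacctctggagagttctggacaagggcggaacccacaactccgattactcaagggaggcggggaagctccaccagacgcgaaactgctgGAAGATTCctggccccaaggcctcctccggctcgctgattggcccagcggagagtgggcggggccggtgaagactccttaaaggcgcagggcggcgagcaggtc
Atf3 held 1 half-element, Nr4a1 held 4 and Fos held 2, and none of the 4 held the full element TGACGTCA, which contains the half-element on both strands. Searched on both strands, TGACG lay in 17.8% of 32851 promoters of this length and in at least 1 promoter of 17 of 31 immediate early genes and of 12 of 24 heat shock genes. TGACGTCA lay in 1.55% of all promoters and in those of 4 of the 31 genes, and GAANNTTC in 6.69% of all promoters, in those of 7 of 24 heat shock genes and in those of 2 of 31 immediate early genes. The motifs were chosen after the values were seen. A match describes letters in this window and does not show that a factor was bound there.

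Most genes were steady across the 4 Yy1+/+ libraries. Of 10160 genes with a mean of at least 5 TPM, 8410 had an SD of log2(TPM + 1) under 0.5. An SD of at least 1 was found for 314 genes, or 3.09%, and these are called variable here. The values nearest this bound were 1.00 inside and 0.999 outside it. Of the 314, 142 were immunoglobulin genes and 172 were not, 126 of the latter protein coding. Short genes with few counts, such as Mir142hg, were among the 172, and the part of counting error in their SD was not tested. Among the 172, replicate 2 was the highest library for 42.4% and replicate 3 the lowest for 46.5%, against 19.1% and 16.8% of all 10160 genes. Replicate 2 was also the lowest for 32.0% of the 172 and replicate 3 the highest for 15.7%, against 58.6% and 39.9% of all 10160 genes. Without replicate 2 the number outside the immunoglobulin loci was 103, and without replicate 4 it was 262.

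**Figure D3:**
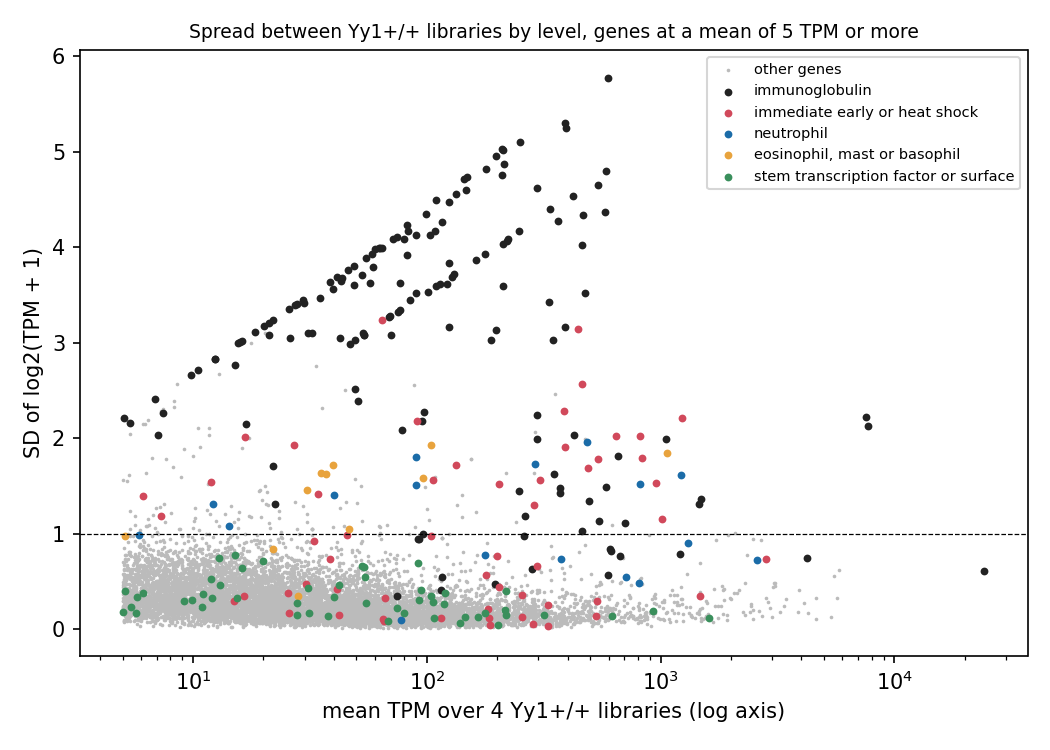
SD of log2(TPM + 1) over the 4 Yy1+/+ libraries against mean TPM (log axis) for the 10160 genes with a mean of at least 5 TPM. The dashed line is the bound of 1 that 314 genes reach. Colours mark immunoglobulin, immediate early or heat shock, neutrophil, and eosinophil, mast or basophil genes, many of which lie above it, and stem cell genes, nearly all of which lie below it.

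Immediate early genes, which are transcribed within minutes of a stimulus or of stress and include the AP-1, EGR and NR4A factors, formed the largest listed group. Of the 30 members at 5 TPM or more, 20 were variable, and the list summed to 9365, 16597, 1871 and 6608 TPM. Replicate 2 was highest for 27 of the 30 and replicate 3 lowest for 29. Without replicate 3, 9 of the members were variable, and Fos, Jun, Junb, Jund, Dusp1, Egr1 and Klf2 then had an SD of 0.50 to 0.95, below the bound.

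Atf3 (ENSMUSG00000026628.13), a stress-induced bZIP factor, had 32.1, 216, 0 and 10.2 TPM and the highest SD of any gene outside the immunoglobulin loci, 3.24. Nr4a1 (ENSMUSG00000023034.7), an orphan nuclear receptor, had 171, 1528, 7.16 and 61.9 TPM. In both, replicate 2 was above the others by several fold. Egr1, a zinc finger factor, had 369, 899, 21.0 and 248 TPM, Fos, a subunit of AP-1, 1862, 1980, 75.8 and 1023, and Dusp1, a phosphatase of MAP kinases, 964, 1503, 64.7 and 727. For these 3 it was replicate 3 that stood apart, below the other libraries. Jun, Junb and Jund, the partners of Fos, followed the same order, with Jun at 948, 1637, 93.5 and 642 TPM. Klf2 had 115, 162, 4.95 and 81.1 TPM, and Klf6 104, 356, 19.8 and 55.0. Id3, an inhibitor of basic helix-loop-helix factors, and Hes1, a Notch target, were high in replicate 2 alone, with 2.80, 42.1, 0.71 and 1.37 TPM and 7.03, 53, 1.66 and 3.44 TPM. Myc, also counted as an immediate early gene, did not share the pattern and was lowest in replicate 2. Of the genes in this group, Fos and Nr4a1 had ranges of 21.9 to 492 TPM and 2.78 to 29.5 TPM in Yy1-/-, and of 93.1 to 1192 TPM and 5.28 to 98.1 TPM in Yy1-/- Smc3+/-.

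Heat shock genes, which encode chaperones that refold proteins, were variable for 5 of 26 members, and the list summed to 8620, 16349, 6552 and 8083 TPM. Hspa1a and its near-identical neighbour Hspa1b, between which reads cannot be firmly divided, had 318, 1093, 16.6 and 409 TPM and 479, 1286, 52.0 and 751 TPM. Hspa5, the chaperone of the endoplasmic reticulum, had 713, 2458, 442 and 457 TPM, and Hspa8, the constitutive form, 2362, 5327, 1698 and 1946. Replicate 2 was highest for all 4. Hsp90aa1 did not follow them, with 598, 518, 476 and 531 TPM. Without replicate 2, 3 members were variable, with Hspa5 at an SD of 0.38, and without replicate 3 the SD of Hspa1a and Hspa1b was 0.94 and 0.71.

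**Figure D4:**
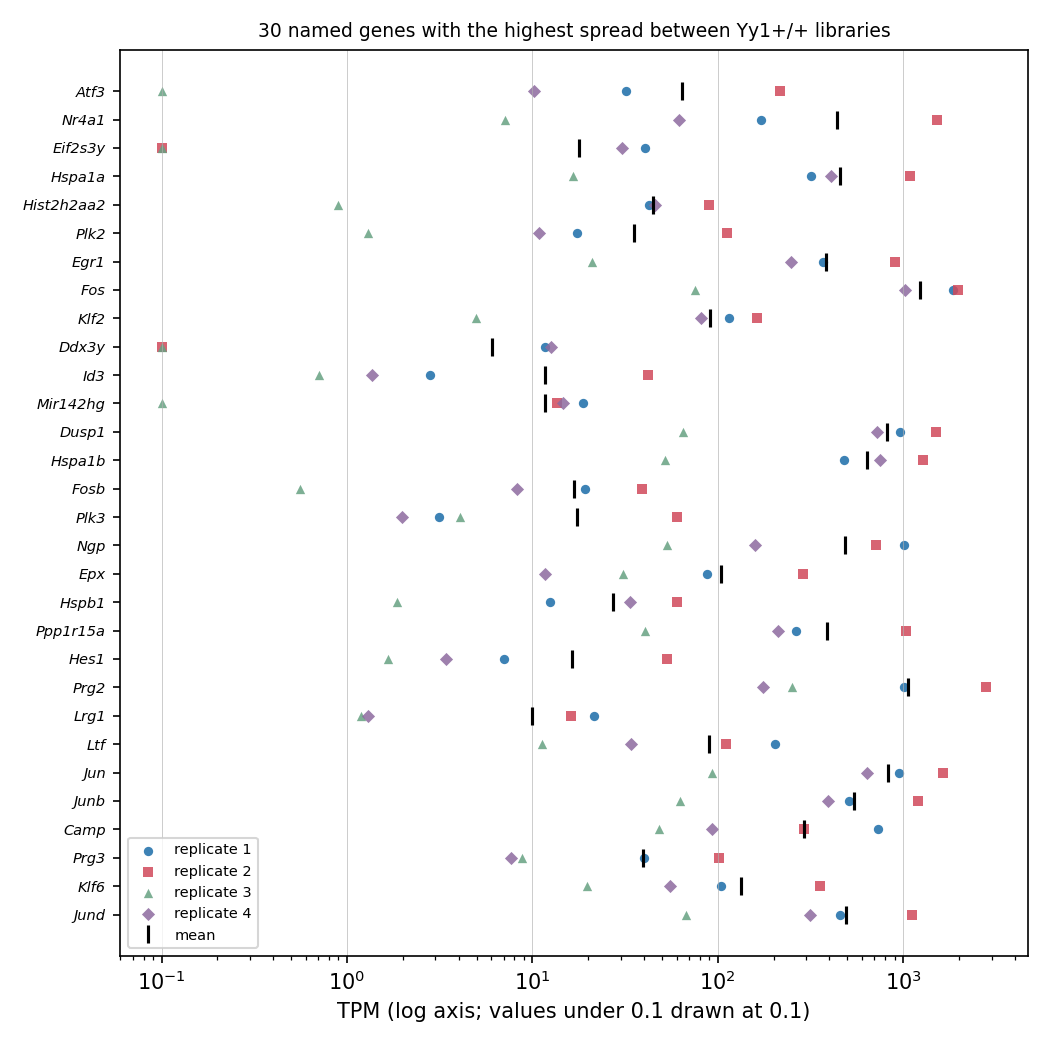
TPM on a log axis, with values under 0.1 drawn at 0.1, for the 30 named genes with the highest SD in the 4 Yy1+/+ libraries (markers) and their mean (line). Immediate early and heat shock genes put replicate 2 at the top and replicate 3 at the bottom (Nr4a1 at 1528 and 7.16 TPM), while Ngp and Camp of neutrophils put replicate 1 at the top.

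Neutrophil genes, which encode granule proteins and calcium-binding proteins of maturing granulocytes, were variable for 9 of 17 members. The list summed to 15381, 11867, 3896 and 5310 TPM, and replicate 3 was lowest for 17 of the 17. Genes of early granules, Mpo, Elane and Ctsg, were high in replicates 1 and 2 alike: Elane, neutrophil elastase, had 1834, 2050, 588 and 760 TPM, and Ctsg, cathepsin G, 507, 550, 201 and 240. Genes of later granulocytes were highest in replicate 1. S100a9, a subunit of calprotectin, had 3023, 1146, 224 and 485 TPM, Ngp 1011, 717, 53.2 and 158, and Ltf, lactoferrin, 205, 111, 11.3 and 33.9. Ly6g, the antigen of mature neutrophils, was at 1.61 TPM or lower in every library. The summed neutrophil level ran from 6575 to 25353 TPM in Yy1-/- and from 5268 to 21813 TPM in Yy1-/- Smc3+/-, so that the Yy1+/+ range of 3896 to 15381 overlapped both.

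Eosinophil, mast cell and basophil genes were variable for 8 of 11 members, with sums of 1540, 3773, 385 and 364 TPM. Prg2 (ENSMUSG00000027073.5, chr2:84980461-84983632), the major basic protein of eosinophil granules, had 1011, 2810, 253 and 175 TPM. Epx, eosinophil peroxidase, had 87.4, 287, 30.8 and 11.8 TPM, and Prg3, the neighbour and relative of Prg2, 40.2, 102, 8.82 and 7.67. Replicate 2 was highest and replicates 3 and 4 low for all 3. The ribonuclease genes Ear1, Ear2 and Ear6, whose reads may be shared, were likewise highest in replicate 2 and low in replicates 3 and 4. The basophil proteases Prss34 and Mcpt8 had 132, 186, 15.1 and 54.0 TPM and 60.2, 75.4, 13.7 and 37.1 TPM, and Cpa3, the mast cell carboxypeptidase, was steadier with 34.5, 27.0, 19.4 and 31.3. Without replicate 3 the SD of Prss34 and Mcpt8 was 0.91 and 0.51, under the bound. Il5ra, the defining eosinophil receptor, stayed at or under 0.95 TPM.

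Of the 172 variable genes outside the immunoglobulin loci, 42 belonged to the 4 lists just described and 130 to none of them. Among the others were Eif2s3y and Ddx3y, the Y-linked genes, and haemoglobin genes, with Hbb-bs at 58.9, 9.43, 8.97 and 5.23 TPM, high in replicate 1. Without replicate 1 the SD of Hbb-bs was 0.41 in place of 1.43. Hbb-bt, the most abundant haemoglobin gene listed, was not variable, with 184, 169, 224 and 211 TPM and an SD of 0.18. Plk2 and Plk3, stress-responsive polo kinases, were high in replicate 2, with 17.3, 113, 1.3 and 10.9 TPM and 3.13, 60.3, 4.05 and 1.99 TPM.

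Immunoglobulin genes made up 6.95%, 10.6%, 9.32% and 2.97% of the TPM of Yy1+/+ replicates 1 to 4. Their constant genes were abundant in all libraries, with Igha, the alpha heavy chain, at 4451, 5046, 5655 and 1810 TPM and Ighm, the mu heavy chain, at 493, 185, 213 and 239. The lambda genes Iglv1 and Iglc1 took the same order over the libraries, with 2876, 17314, 10128 and 629 TPM and 2696, 16463, 10480 and 540 TPM. Of 218 variable-region genes, 77, 50, 76 and 41 reached 100 TPM in replicates 1 to 4, and 122 did so in at least 1 library. Of those 122, 51 did so in a single library, 35 in 2, 21 in 3 and 15 in all 4, and 78 were at 0 in at least 1 other library. The 10 highest variable-region genes held 35.3%, 65.0%, 51.2% and 44.4% of the variable-region TPM. The libraries therefore differed in which segments were read and not only in the total.

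Genes of antibody-secreting cells were, like that total, lowest in replicate 4, but not all of them took its order over the other libraries. Jchain, which joins antibody units, had 2280, 3275, 2812 and 980 TPM, Mzb1, an antibody folding factor, 61.9, 75.3, 64.1 and 22.7, and Xbp1, the secretory factor, 221, 288, 208 and 136. Replicate 4 was lowest for all 3, as for Igkc. Sdc1, which encodes the plasma cell marker CD138, had 42.0, 40.6, 35.4 and 30.1 TPM, also lowest in replicate 4. Ms4a1 and Pax5, genes of B cells before that stage, stayed at or under 0.13 TPM. Cd79b, another listed B cell marker, had 81.5, 91.7, 88.5 and 80.7 TPM, with an SD of 0.09. The part of antibody-secreting cells in these levels was not tested.

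Against these groups stood genes with almost no spread. Sft2d1 (ENSMUSG00000073468.12, chr17:8311102-8327442), a membrane traffic protein, had 102.0, 102.3, 103.4 and 103.8 TPM and the smallest SD of any gene with a mean of at least 50 TPM. S100a6, a calcium-binding protein, had 110.8, 112.6, 111.3 and 110.2 TPM. Eif2b4 and Eif2b1, subunits of the exchange factor that restarts translation initiation, had 64.8, 63.9, 65.1 and 65.5 TPM and 73.1, 74.6, 74.8 and 75.1 TPM. Ncstn, a subunit of gamma-secretase, Rnmt, the messenger RNA cap methyltransferase, and Cdc16, a subunit of the anaphase-promoting complex, completed the named group with Ubl3, Timm8a1 and Tsr3.

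The wild-type profile was then set against each of the other genotypes over 16649 genes that passed a count filter, with a gene called at an adjusted p under 0.05 in edgeR's quasi-likelihood test. Against Yy1-/-, 5015 genes or 30.1% were called, 2595 of them (15.6%) higher in Yy1+/+ and 2420 (14.5%) lower. Against Yy1-/- Smc3+/-, 4117 genes or 24.7% were called, 2233 (13.4%) higher in Yy1+/+ and 1884 (11.3%) lower. On log2(TPM + 1) with limma the split was more one-sided, with 4327 higher and 1445 lower against Yy1-/- and 3480 higher and 1299 lower against Yy1-/- Smc3+/-. Both comparisons share the 4 Yy1+/+ libraries, so their values are given side by side and are not independent. The Y-linked gene Eif2s3y had 40.6, 0, 0 and 30.6 TPM in Yy1+/+ and 0, 0, 17.0 and 0 TPM in Yy1-/-. In Yy1-/- Smc3+/- it had 63.5, 62.0, 10.8 and 74.4 TPM. The groups thus differed in Y-linked transcripts, and the part of sex in the calls was not tested. Yy1+/+ replicates 1 and 4 carried both Eif2s3y and Xist (3.07 and 2.53 TPM). Yy1-/- Smc3+/- replicates 1 and 4 carried Eif2s3y with Xist at 0. Whether a library mixed cells of both sexes was not tested. The labels do not say whether each library came from a separate animal, so the p-values set group differences against the spread between libraries, not between animals.

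**Figure D5:**
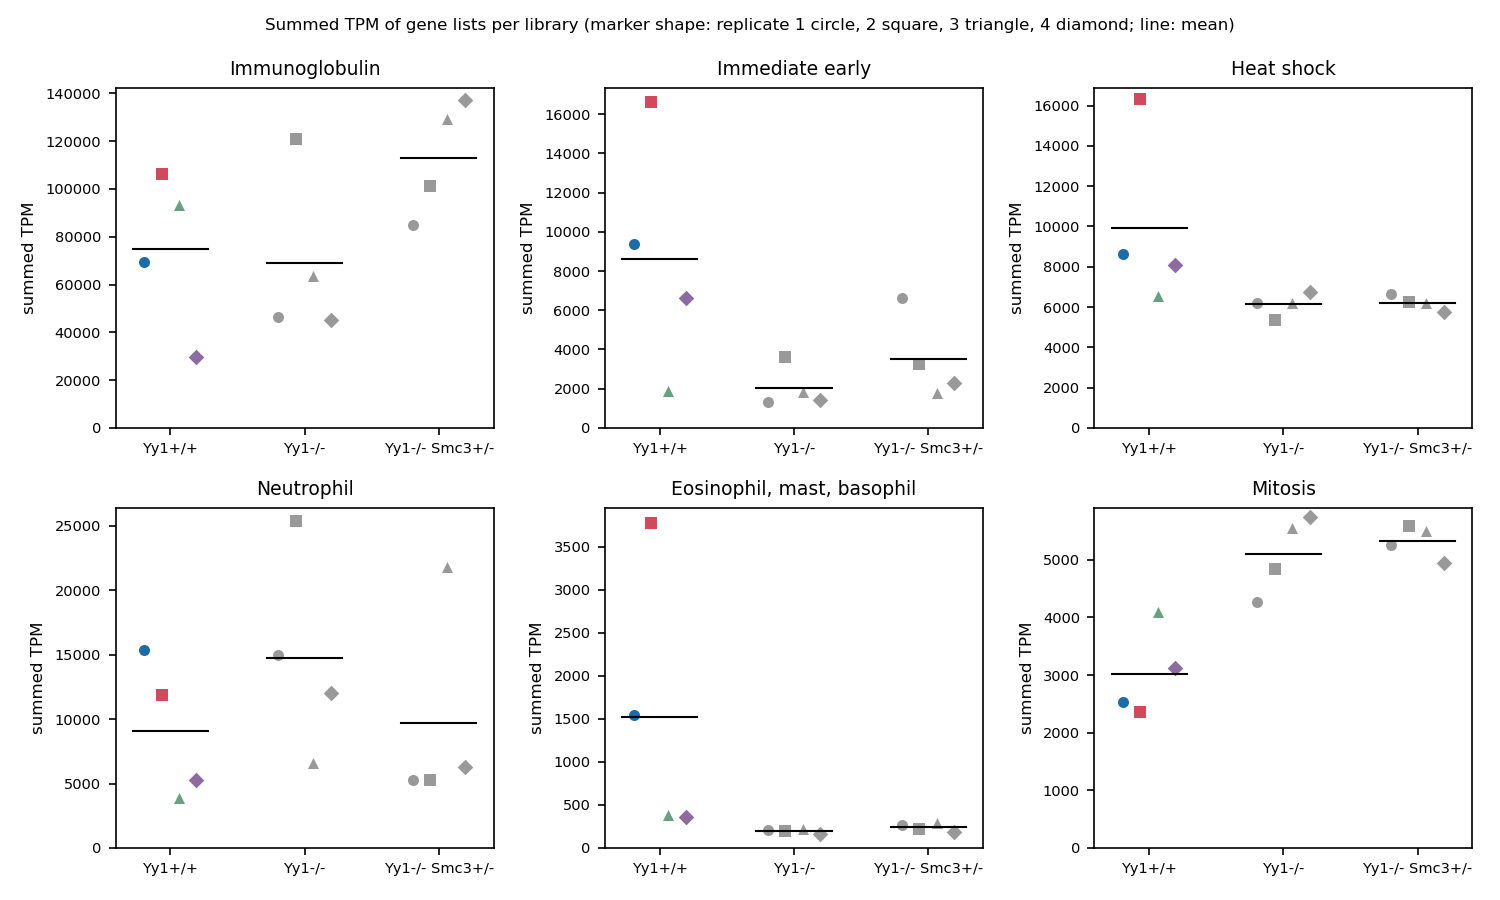
Summed TPM per library on linear axes from 0 for 6 groups of genes in Yy1+/+ (coloured markers) and in the other 8 libraries (grey), with a line at each mean. The mitosis sums of the Yy1+/+ libraries (2362 to 4089 TPM) lie below all others, while the neutrophil sums overlap.

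Stem cell transcription factors were higher in Yy1+/+ for 27 of 42 tested against Yy1-/- and for 22 of 42 against Yy1-/- Smc3+/-, and none was lower. Over all genes 15.6% and 13.4% were called in that direction, and the median log2 fold change of the list was -1.09 and -0.96 against 0.01 and 0.02 over all genes. Lmo2, at 815 to 1110 TPM in Yy1+/+, had 309 to 371 TPM in Yy1-/- and 333 to 395 TPM in Yy1-/- Smc3+/-, and the groups did not overlap (log2 fold change -1.13 ± 0.12, standard error, edgeR adjusted p = 8.268e-05, and -1.15 ± 0.12, adjusted p = 9.182e-05). Gata2 had 17.4 to 34.3 TPM and 21.5 to 48.4 TPM there, below its wild-type 128 to 161. Hlf, at 24.2 TPM or more in Yy1+/+, had 1.71 to 6.93 TPM and 4.29 to 8.82 TPM, so that the low replicate 2 still lay above every library of the other genotypes (edgeR adjusted p = 0.000212 and 0.0003). Hhex, the steadiest factor, was not called in either comparison (-0.37 ± 0.17, edgeR adjusted p = 0.118, and -0.20 ± 0.17, adjusted p = 0.425), although its TPM did not overlap, with 82.2 to 163 and 144 to 179 against 196 to 210. It was called against Yy1-/- without Yy1-/- replicate 3 and with limma.

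Surface genes were higher in Yy1+/+ for 13 of 28 in each comparison and lower for 2 and 1. Kit was lower in both (log2 fold change -2.12 ± 0.35, edgeR adjusted p = 0.00101, and -1.65 ± 0.34, adjusted p = 0.00455), with 20.7 to 62.7 TPM and 42.2 to 98.7 TPM, just under the 99.1 TPM of Yy1+/+ replicate 2. Ly6a was not called (0.43 ± 0.26, edgeR adjusted p = 0.243, and 0.30 ± 0.26, adjusted p = 0.446). Myeloid and lymphoid factors were called in both directions, 5 higher and 4 lower of 32 against Yy1-/- and 5 and 5 against Yy1-/- Smc3+/-, beside 15.6% higher and 14.5% lower over all genes in the former comparison and 13.4% and 11.3% in the latter. Of these, Nfe2 was lower in the other genotypes, with 162 to 227 TPM and 188 to 236 TPM (-1.13 ± 0.14, edgeR adjusted p = 0.000194, and -1.10 ± 0.14, adjusted p = 0.000254). Hox genes were higher in Yy1+/+ for 7 and 6 of 16 tested and lower for none.

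Mitosis genes were lower in Yy1+/+ for 39 of 41 against Yy1-/- and 40 of 41 against Yy1-/- Smc3+/-, where 14.5% and 11.3% of all genes were called in that direction. Their summed level was 4266 to 5739 TPM and 4944 to 5594 TPM, above the 4089 TPM of Yy1+/+ replicate 3, the wild-type library with the highest sum. Cdk1 had 316 to 392 TPM and 320 to 367 TPM against 149 to 227 TPM. Replication genes were lower in Yy1+/+ for 11 and 12 of 40 and higher for 1 and 0. Proteasome genes were lower for 22 and 20 of 31, nuclear respiratory genes for 42 and 29 of 74 (2 and 4 were higher), and cytosolic ribosomal protein genes for 67 and 31 of 81 (1 and 2 were higher). Glycolysis genes were called in both directions, 7 higher and 7 lower of 26 against Yy1-/- and 7 and 5 against Yy1-/- Smc3+/-.

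Immediate early genes were higher in Yy1+/+ for 13 of 36 tested against Yy1-/- and for 5 of 36 against Yy1-/- Smc3+/-, where 15.6% and 13.4% of all genes were called in that direction, so that the second count was near the share over all genes. None was lower. Their summed level ran from 1300 to 3596 TPM in Yy1-/- and from 1789 to 6650 TPM in Yy1-/- Smc3+/-. The wild-type replicate 3, at 1871 TPM, lay inside both ranges, replicate 4, at 6608 TPM, inside the wider one, and replicates 1 and 2 above both. The heat shock sum ran from 5369 to 6755 TPM and from 5769 to 6659 TPM there, which replicate 3 at 6552 TPM did not exceed. The sums of eosinophil, mast cell and basophil genes behaved otherwise: at 167 to 221 TPM and 187 to 290 TPM they lay below the lowest wild-type sum of 364. Single members were called in both directions. Of 18 tested, 6 were higher and 5 lower in Yy1+/+ against Yy1-/-, and 6 and 4 against Yy1-/- Smc3+/-. Prg2 was lower in both genotypes, at 7.74 to 63.2 TPM and 36.6 to 66.7 TPM (-5.18 ± 0.97, edgeR adjusted p = 0.00224, and -4.41 ± 0.94, adjusted p = 0.00521). Epx was listed at 0 in all 4 Yy1-/- libraries and in 3 of Yy1-/- Smc3+/-, and Ear1 and Ear6 were at 0 in all 8. Mcpt8, in contrast, had 65.6 to 70.7 TPM and 50.8 to 81.7 TPM, inside or near its wild-type range of 13.7 to 75.4. Cma1 and Tpsb2 of the same list lay above their wild-type ranges of 0 to 0.75 TPM and 0 to 0.08 TPM. Cma1 had 5.12 to 27.5 TPM in Yy1-/- and 15.79 to 32.15 TPM in Yy1-/- Smc3+/-. Tpsb2 had 1.14 to 7.08 TPM and 4.09 to 15.21 TPM there.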

How the data were processed

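RNA of sorted LSK cells was purified and amplified by SMART-Seq v4 chemistry for low input, which does not mark strand, per the labels' protocols. STAR 2.5.2b, RSEM 1.3.0 and the build mm10 are named in the submitters' processing notes, without settings or roles. Each deposited table holds, per the file headers, an RSEM expected count (the estimated reads of a gene, some of them fractions), a TPM value and a length for 55487 genes. Reads that match several genes were divided between them by the authors' tool. The deposited gene length, used as given, served only for classes and the trend of length. Symbols and positions come from GENCODE M21 (GRCm38, the same assembly as mm10), in which 55094 identifiers matched with their version, 300 with another version and 93 not at all.

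Libraries were grouped by genotype label. Replicate numbers follow sample order and pair nothing. Levels are the deposited TPM with mean and SD over 4 libraries, and spread is the SD of log2(TPM + 1) for genes with a mean of at least 5 TPM. For the other genotypes, expected counts were rounded, and edgeR 4.0.16 under R 4.3.3 was used (TMM factors, minimum count 10, minimum total 15, 1 term per genotype, all 12 libraries, quasi-likelihood F test, Benjamini-Hochberg adjusted p under 0.05). Several option sets of this tool were looked at after counts of calls were known, and its default is reported. The fit was tested on simulated data. Single values per library were compared with exact permutation tests. Limma 3.58.1, DESeq2 1.42.0, other scalings and filters, and leaving out each library were alternatives.

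The members and the 40 gene lists (37 by hand and 3 by symbol pattern) were chosen with earlier results of these data known. The genes named are the 30 most abundant, the 30 most variable and 10 steadiest, up to 8 members with the highest mean and up to 4 with the highest SD of each list described, members of a defining role under 1 TPM, and Yy1, Smc3, Kit and Ly6a. Other members named for their known role, among them Hlf, Mecom, Tcf15, Prdm16, Runx1, Tal1, Procr, Tek, Slamf1, Csf3r, Csf2ra, Epor, Gata1, Cebpa, Hoxb5, Ccnb1, Mki67 and Cdkn1c, were chosen after their values were seen. FPKM was not used here. A few genes that meet the rule are not reported here.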

Additional observations from a re-analysis of the deposited data

Results flagged for a closer look

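Of 220 levels and sums examined over the 4 Yy1+/+ libraries, 20 had 1 library far from the other 3, with a gap to the nearest that was past Dixon's bound for 4 values. Chance alone puts about 1 in 20 groups past that bound where values are normally distributed and not chosen for their spread. The values examined are not independent of each other. Atf3, Nr4a1, Id3, Hes1, Plk2 and Plk3 were among the 30 genes of highest SD in these libraries. Nr4a2, Cdkn1a and Hbb-bs were among the members of highest SD of their lists, and Hlf was named after its values were seen. That rate therefore does not apply to any of these genes. Where 3 libraries are at 0, as for Ms4a1 and Pax5, the remaining library always passes the bound.

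Replicate 2 was the far library for 11 of them. It was high for Nr4a1 (1528 TPM, others 7.16 to 171), Nr4a2 (35.6, others 2.09 to 5.70), Atf3 (216, others 0 to 32.1), Hspa5 (2458, others 442 to 713), Cdkn1a (145, others 11.2 to 24.3), Id3 (42.1, others 0.71 to 2.80), Hes1 (53, others 1.66 to 7.03), Plk2 (113, others 1.3 to 17.3) and Plk3 (60.3, others 1.99 to 4.05). It was low for Hlf (24.2 TPM, others 60.3 to 64.9) and for the number of genes at 1 TPM or more (12784, others 13291 to 13383). Replicate 2 was also the deepest library and the one lowest for long genes, and the part of either in these values was not tested.

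Replicate 4 was low for Igkc (12214 TPM, others 26946 to 29322) and for the summed B cell markers, of which Igkc is the largest member (13899 TPM, others 30358 to 33407), and high for the summed nuclear respiratory genes (34455 TPM, others 30539 to 30943). Replicate 3 was low for Hoxa7 (36.8 TPM, others 43.6 to 44.7) and for the summed list of cell cycle inhibitors and quiescence genes (1104 TPM, others 1359 to 1391). That list holds Btg2, also listed as an immediate early gene, with 245, 358, 32.0 and 178 TPM in replicates 1 to 4. Its largest member, Txnip, was lowest in replicate 2 and not in replicate 3. The part of Btg2 in the low sum was not tested. Replicate 1 was high for Hbb-bs (58.9 TPM, others 5.23 to 9.43), for the neutrophil antigen gene Ly6g (1.61, others 0 to 0.21) and, at levels close to 0, for Ms4a1 (0.13, others 0) and Pax5 (0.02, others 0).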

How the results depend on the processing

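No paired analysis was possible because the replicate numbers follow sample order and the labels pair no libraries. Of the 30 most abundant genes, 13 kept their place with TMM-scaled CPM, which is not corrected for length. The share of TPM in the 100 most abundant genes was 3.04 points lower in Yy1+/+ than in Yy1-/-, but 1.34 points lower with CPM of expected counts. The variable genes numbered 185 when TPM were rescaled without immunoglobulin genes. Outside the immunoglobulin loci they numbered 273 at a mean of 1 TPM, 91 at 20 TPM and 278 with no filter, and 103 to 262 when 1 library was left out, against 172. The counts of genes higher in Yy1+/+ were 4327 and 3480 with limma on log2(TPM + 1), and of genes lower against Yy1-/- 1445. With bias-adjusted dispersions in edgeR, an alternative chosen after seeing the data, they were 3132 higher and 2722 lower against Yy1-/- and 2786 and 2189 against Yy1-/- Smc3+/-. Leaving out 1 library gave 2033 to 2546 higher and 1828 to 2531 lower, and 1666 to 2101 and 1335 to 1895. The cause of these differences was not tested. No value changed direction under the alternatives run. The removal of the length trend and the rescaling without immunoglobulin genes were also chosen after seeing the data.

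Precision is limited by 4 libraries, by the division of reads between near-identical genes, and by the mix of cell types in a bulk library.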
